A study of Mus musculus with 8 samples.

Results

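The regions described are peaks of accessible chromatin that lie in gene deserts, the long stretches of a chromosome with no protein-coding gene. A peak was a member when it lay on chromosomes 1 to 19 and more than 50000 bp from the span of every protein-coding gene of the RefSeq annotation of mm10. The rule used position alone and no measured value. It gave 5711 members out of 57199 peaks, and the other 49880 peaks on chromosomes 1 to 19 serve for comparison. The assay was ATAC-seq, where transposase cuts open DNA and leaves sequencing adapters in it, applied to regulatory T (Treg) cells sorted from mouse spleen. The cells came from mixed bone-marrow chimeras, animals rebuilt with marrow of 2 sources, and were gated as CD4+, Foxp3-YFP+, CD45.2+ and CD45.1-, so that cells of a single donor were collected. In 1 group the donor was WT and in the other Foxp3CreFlcnfl/fl, in which Cre under Foxp3 control removes the floxed Flcn gene from Foxp3-expressing cells (Flcn KO). Each group had 4 libraries, called biological replicates by the labels. The labels used here do not give the age of the animals, whether the WT donor carried Cre, or which exons are removed.

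Distal regulatory elements, chiefly enhancers, bind transcription factors far from the genes they act on and often skip the nearest gene. Deserts frequently flank genes for developmental regulators and hold many such elements, some of them in groups. They also hold the variable-segment arrays of the antigen receptor loci, which RefSeq does not class as protein-coding genes, and many long non-coding RNA (lncRNA) genes. Flcn encodes folliculin, a lysosomal regulator of the nutrient-sensing kinase complex mTORC1 that restrains the transcription factors TFEB and TFE3. Throughout, a member is named by the protein-coding gene on its left and the one on its right with both distances. This is position only and does not show which gene it acts on.

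Sequence was at hand where a member overlapped the promoter window of a lncRNA or other non-coding gene in RefSeq, and those carrying a called change are shown first. Each window runs from 250 bases before to 50 bases after the annotated start (assembly GRCm38.p6, the assembly of mm10). In all, 133 members overlapped 155 such windows, 120 of the 133 were tested, and 2 of those were called, both higher in Flcn KO. That is 1.67% called, below the 4.88% of all tested members and the 2.37% of all tested peaks. These 2 are followed by the window of BC002059, which lies in one of the 5 most accessible members and was not called. Capitals mark matches to 5 short motifs searched on both strands: CACGTG (the E-box that TFEB and TFE3 bind), TGANTCA (AP-1), TGTGGT (RUNX), CCGGAA (ETS) and GTAAACA (forkhead).
Gm34947, chr4:9748136-9748435, plus strand: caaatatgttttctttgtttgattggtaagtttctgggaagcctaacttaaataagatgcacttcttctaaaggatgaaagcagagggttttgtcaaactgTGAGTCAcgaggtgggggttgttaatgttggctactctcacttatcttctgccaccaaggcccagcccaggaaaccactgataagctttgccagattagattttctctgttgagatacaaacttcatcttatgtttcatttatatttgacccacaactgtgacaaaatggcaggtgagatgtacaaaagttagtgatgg
Gm14250, chr2:169388794-169389093, plus strand: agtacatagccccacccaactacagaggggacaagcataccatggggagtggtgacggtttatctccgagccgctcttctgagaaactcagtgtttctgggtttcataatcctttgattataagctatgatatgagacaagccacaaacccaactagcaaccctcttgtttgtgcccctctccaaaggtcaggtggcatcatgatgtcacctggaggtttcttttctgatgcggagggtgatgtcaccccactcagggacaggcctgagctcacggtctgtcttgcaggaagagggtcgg
BC002059, chr17:16951286-16951585, plus strand: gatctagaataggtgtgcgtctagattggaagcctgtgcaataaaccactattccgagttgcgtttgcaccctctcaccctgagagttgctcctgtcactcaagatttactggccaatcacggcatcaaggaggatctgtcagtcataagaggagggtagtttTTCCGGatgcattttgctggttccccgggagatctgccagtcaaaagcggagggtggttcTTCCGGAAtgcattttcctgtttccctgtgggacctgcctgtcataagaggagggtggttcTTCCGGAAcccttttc
The Gm34947 window held 1 AP-1 match, the Gm14250 window none of the 5 motifs, and the BC002059 window 5 ETS matches counted over both strands, some of which overlap because CCGGAA and its reverse complement share bases. The window of Gm26901, in the most accessible member of all, is not printed and held none of the 5 motifs. Among the 155 windows that overlapped members, 16.8% held AP-1, 29.0% RUNX, 12.3% ETS, 9.68% CACGTG and 6.45% forkhead matches. Over all 32817 windows the shares were 7.81%, 16.8%, 14.9%, 7.15% and 3.65% in the same order. Those were taken whatever the kind of gene and whether or not a peak overlapped them. The 2 sets are therefore unlike, and their difference was not tested. A match is a description of the letters, not of binding.

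The member over the Gm34947 start, chr4:9747555-9748398, lay 78.2 kb from Asph and 96 kb from Gdf6, a gene for a secreted growth factor. Its normalised counts (CPM, scaled to the TMM-adjusted library size) were 0.83, 2.68, 2.04 and 3.44 CPM in the WT libraries and 8.21, 11.2, 14.9 and 9.14 CPM in the Flcn KO libraries. All 4 Flcn KO libraries stood above all 4 WT libraries, and the member rose (log2 fold change of 2.28 with an SE of 0.36, adjusted p = 0.000106; edgeR). The member over the Gm14250 start, chr2:169388694-169389076, between Zfp64 and Tshz2, had 1.25, 0.892, 2.04 and 1.48 CPM in the WT libraries and 6.26, 4.27, 2.98 and 5.33 CPM in the Flcn KO libraries. Its groups did not overlap either, and it rose with an adjusted p close to the threshold (log2 fold change of 1.73 with an SE of 0.48, adjusted p = 0.0414), a call that 8 of the alternative settings did not keep. The member over BC002059, chr17:16951136-16951701, had 183, 194, 222 and 203 CPM in the WT libraries and 199, 211, 198 and 249.9 CPM in the Flcn KO libraries, and the groups overlapped (adjusted p = 0.738).

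The 8 libraries held between 2723344 and 5111728 counts in peaks. In each, 88.7% to 92.5% of the non-zero counts were even, which points to both mates of a pair being counted and to fragment numbers nearer the count divided by 2. The median member had 14 to 26 counts per library; counting error and the spread between libraries were not separated. The Treg marker Foxp3 had 37.4 to 39.3 CPM in WT, against 38.5 to 50.2 CPM in Flcn KO, and 0 of the 43 tested peaks of 5 Treg marker genes (Foxp3, Il2ra, Ctla4, Ikzf2, Cd4) passed the edgeR test; 7 had an unadjusted p under 0.05, and 0 passed by DESeq2 or limma-voom. The sixth, Tnfrsf18, had no peak within 1000 bp. The B cell genes Ms4a1 and Cd79b, the myeloid genes Csf1r, Lyz2 and Cd68, and the NK cell gene Ncr1 had no peak within 1000 bp either. Of the other myeloid genes, Spi1 had 16.5 to 30.3 CPM over 2 peaks in WT, against 19.6 to 22.9 CPM in Flcn KO, and Itgam had 2.55 to 4.98 CPM at 1 peak in WT, against 0 to 2.14 CPM in Flcn KO; the groups did not overlap at Itgam, and none of these 3 peaks was called. The CD8 genes Cd8a and Cd8b1 had 18.1 to 29.0 CPM in sum in WT and 16.03 to 35.8 CPM in Flcn KO. The peak of Klrb1c, an NK cell gene, was the only marker peak called, with 5.10 to 8.92 CPM in WT, against 1.52 to 3.48 CPM in Flcn KO. In bulk libraries, a change in the cells that carry an open site and a change in how open it is per cell cannot be told apart.

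Accessibility changed at a larger share of gene-desert peaks than of other peaks. Of the 5711 members, 4463 (78.1%) passed the filter on low counts; 124 rose and 94 fell in Flcn KO, together 218 or 4.88% of those tested (edgeR quasi-likelihood test, adjusted p under 0.05). Of all 47859 tested peaks, on every chromosome, 2.37% were called, 1.35% higher and 1.02% lower, against 2.78% and 2.11% of the members. The other peaks on chromosomes 1 to 19 had 515 higher and 388 lower calls among 42101 tested, or 2.14%. The share among members was between 2.09 and 2.53 times that of the other peaks in all 17 alternative settings; no test of the difference was made, since neighbouring peaks are not independent. The filter asks for about 10 counts in 4 libraries, so a member below that in the group where it is low can pass only with the other group. This was so for 39 of the 124 higher members, which did not reach the minimum in all 4 WT libraries, and for 54 of the 94 lower ones, which did not in all 4 Flcn KO libraries. The counts moved with single libraries: without WT replicate 2 there were 95 higher and 42 lower members, and without Flcn KO replicate 1 there were 161 and 177.

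Among the called members the change was often large, but they were picked by this contrast. With few counts only a large change can pass, so these sizes may be overstated. The median log2 fold change was 1.20 for the higher ones (range 0.42 to 3.83) and −1.61 for the lower ones (range −4.35 to −0.46), and 79 rose and 76 fell by at least 2-fold. The 4 libraries of 1 group all stood apart from those of the other at 489 tested members (10.96%), compared with 7.59% over all tested peaks. This held for 115 of the 124 higher and 88 of the 94 lower members. Those were called by the same contrast, so their separation is no further evidence of a change. An unadjusted p under 0.05 was reached by 19.6% of the tested members and 12.3% of the other peaks. The median log2 fold change over all tested members was 0.06, with 55.9% above 0, and that of the other peaks was 0.00.

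The called share grew with distance from a gene from 10 kb outwards. It was 2.02% of 30380 tested peaks inside a protein-coding gene, 1.96% within 10 kb of one and 2.94% from 10 to 50 kb. In the deserts it was 4.19% at 50 to 100 kb, 4.81% at 100 to 200 kb, 6.01% at 200 to 500 kb and 6.95% of the 259 tested members beyond 500 kb. Higher calls outnumbered lower calls in every class except the last, where 6 rose and 12 fell. Several of these lower members, and of those at 200 to 500 kb, lay in a single locus, the Igh variable region described below. The classes were not counted without that locus.

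**Figure D1:**
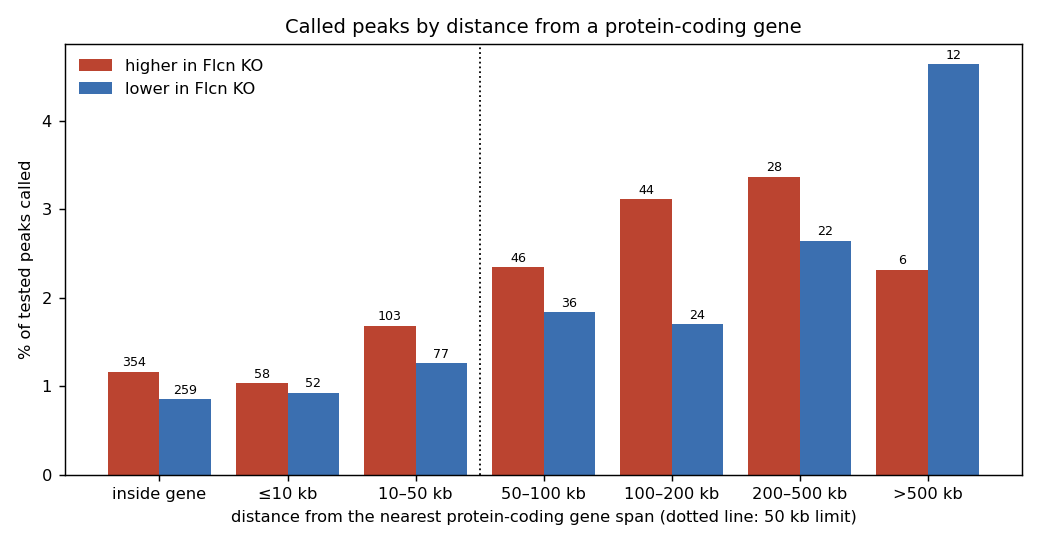
Percent of tested peaks called higher (red) or lower (blue) in Flcn KO, by distance from the nearest protein-coding gene span, with the number of calls above each bar. The 4 classes right of the dotted 50 kb line are the gene-desert peaks, which run from 4.19% to 6.95% called in both directions together.

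Members were a little less accessible and narrower than other peaks, with a median of 7.12 against 9.25 CPM and a median width of 335 against 353 bp. They also varied more between libraries of a group, with a median SD of 0.40 log2 units against 0.34. At matched accessibility the called share was still larger among members in each of 6 classes. The gap was widest at 20 to 50 CPM, where 48 of 622 members (7.72%) and 157 of 7279 other peaks (2.16%) were called. Above 50 CPM the shares were 4.55% and 1.47%, and at 4 CPM or less 3.58% and 1.11%.

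**Figure D2:**
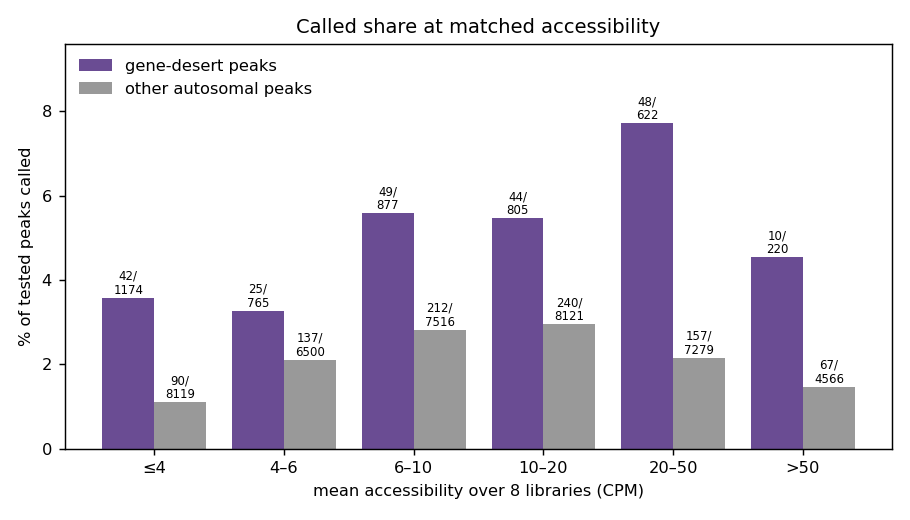
Percent of tested peaks called in either direction, by mean accessibility over the 8 libraries, for gene-desert peaks (purple) and other peaks on chromosomes 1 to 19 (grey); called and tested numbers stand above the bars. The purple bar is the taller in each of the 6 classes.

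The deserts as a whole did not gain or lose a detectable share of each library. Members took 6.12%, 6.60%, 6.20% and 5.97% of the peak counts in WT and 6.49%, 6.07%, 6.83% and 6.48% in Flcn KO. The highest WT library, replicate 2, lay above 3 of the 4 Flcn KO libraries. The means were 6.22% ± 0.27 and 6.46% ± 0.31 (SD, n = 4), and an exact permutation test over libraries detected no difference (two-sided p = 0.343; 4 against 4 cannot go below 0.0286).

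Calls were made in members with and without a non-coding gene. Of 1405 tested members inside a non-coding gene span, 25 rose and 34 fell (4.199%), and of 3058 in no gene span of the annotation, 99 rose and 60 fell (5.20%). Inside lncRNA spans 22 rose and 22 fell among 1174 tested. The 790 tested members that lay beyond 50000 bp of any gene, non-coding genes included, had 33 higher and 18 lower calls (6.46%). By chromosome, the called share of tested members was between 1.64% on chromosome 19 and 8.50% on chromosome 18, with calls on all 19. The higher calls were most frequent on chromosome 14 (12 of 227) and the lower on chromosome 12 (18 of 368), which carry 2 of the deserts described below.

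The strongest gain lay between Lrpap1, which encodes a chaperone of lipoprotein receptors, and Adra2c, an adrenergic receptor gene. At chr5:35165930-35166674, 60.2 kb from Lrpap1 and 112 kb from Adra2c, the values were 9.13, 10.7, 11.7 and 6.4 CPM in the WT libraries and 57.5, 45.4, 54.2 and 41.9 CPM in the Flcn KO libraries. The lowest Flcn KO library stood more than 3-fold above the highest WT library, and the member rose (log2 fold change of 2.40 with an SE of 0.18, adjusted p = 3.84e-11).

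A further 3 of the 10 higher members with the lowest adjusted p are given with the value in each library. The member at chr5:75791732-75792184, 135 kb from Kit, the stem cell factor receptor, and 141 kb from Kdr, a receptor for vascular endothelial growth factor, had 12, 20.5, 14.8 and 13.3 CPM in the WT libraries and 55.9, 39, 64.1 and 50.7 CPM in the Flcn KO libraries. The groups were far apart at this site, and it rose (log2 fold change of 1.79 with an SE of 0.18, adjusted p = 1.76e-08). Between Asb1 and Twist2, a basic helix-loop-helix transcription factor gene, chr1:91626078-91626498 had 6.23, 8.03, 6.12 and 4.92 CPM in the WT libraries and 30.1, 21.9, 34.1 and 20.6 CPM in the Flcn KO libraries. This member also rose with no overlap of the groups (log2 fold change of 2.08 with an SE of 0.23, adjusted p = 1.54e-07). Near the middle of the interval between Hmga2, an architectural chromatin protein gene, and Msrb3, chr10:120628065-120628504 had 2.91, 4.46, 8.16 and 3.44 CPM in the WT libraries and 34, 16, 30.8 and 19.8 CPM in the Flcn KO libraries; it rose, with Flcn KO replicates 1 and 3 the highest (log2 fold change of 2.44 with an SE of 0.28, adjusted p = 1.24e-06).

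The most accessible of the 10 higher members, chr18:79303457-79304009, 193 kb from Setbp1, had 51.9, 57.8, 52.3 and 56.6 CPM in the WT libraries and 107, 87.4, 149 and 121 CPM in the Flcn KO libraries, and rose (log2 fold change of 1.09 with an SE of 0.12, adjusted p = 4.94e-07). Between Mbnl1, a splicing regulator gene, and P2ry1, a nucleotide receptor gene, chr3:60819598-60820621 had 18.5, 17.8, 17.8 and 20.2 CPM in the WT libraries and 37.9, 44.4, 53.2 and 63.2 CPM in the Flcn KO libraries; the 4 WT libraries lay within a narrow range and all 4 Flcn KO libraries above it (log2 fold change of 1.40 with an SE of 0.16, adjusted p = 4.82e-07). Between Cryaa, a lens crystallin gene, and Sik1, which encodes a salt-inducible kinase, chr17:31776910-31777366 rose from 2.13 ± 0.779 CPM to 13.2 ± 1.93 CPM (SD, n = 4; log2 fold change of 2.63 with an SE of 0.32, adjusted p = 1.47e-06). Between Cdkn2b, a cyclin-dependent kinase inhibitor gene, and Dmrta1, chr4:89388121-89388524 rose from 7.09 ± 2.19 CPM to 28 ± 9.38 CPM (log2 fold change of 1.98 with an SE of 0.24, adjusted p = 1.50e-06). The remaining 2 of the 10 belong to the desert beside Gfra2, described below.

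**Figure D3:**
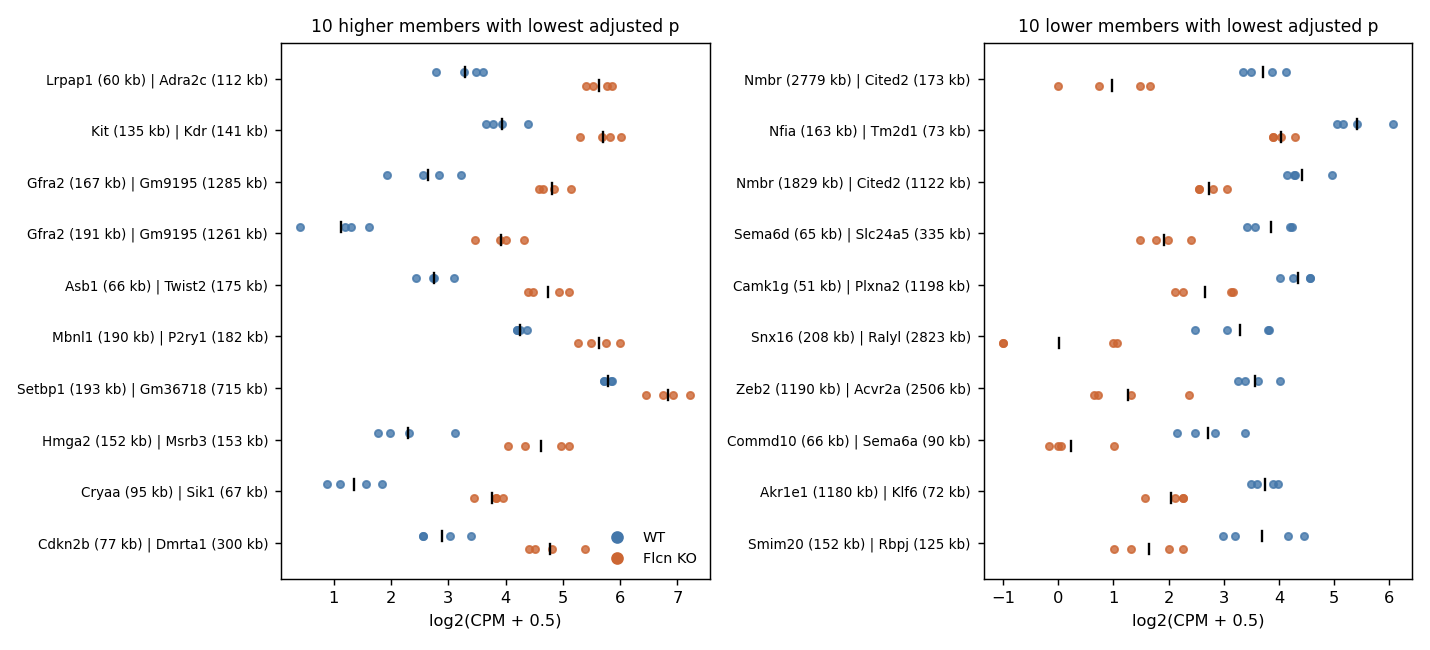
Accessibility of the 10 higher (left) and 10 lower (right) gene-desert peaks with the lowest adjusted p, as log2(CPM + 0.5) per library, 4 WT (blue) and 4 Flcn KO (orange) points each with a black bar at the mean; labels give both flanking genes and distances. The groups do not overlap in any of the 20 members, which were chosen by this contrast.

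The strongest loss lay in the desert left of Cited2, which encodes a transcriptional co-regulator. At chr10:17550029-17550629, 173 kb from Cited2 and far from Nmbr, the neuromedin B receptor gene, the values were 14.1, 17, 9.69 and 10.8 CPM in the WT libraries and 1.17, 2.67, 0.497 and 2.29 CPM in the Flcn KO libraries. The Flcn KO libraries had almost no counts there, and the member fell (log2 fold change of −3.01 with an SE of 0.37, adjusted p = 1.47e-06). A second member of the same interval, chr10:16600813-16601242, 1122 kb from Cited2, had 19.1, 30.8, 18.9 and 17.2 CPM in the WT libraries and 7.82, 5.34, 6.46 and 5.33 CPM in the Flcn KO libraries. It fell as well, and WT replicate 2 stood well above the other WT libraries (log2 fold change of −1.76 with an SE of 0.24, adjusted p = 1.52e-05).

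Between Nfia, a transcription factor gene 163 kb away, and Tm2d1, 72.5 kb away, chr4:98282218-98282846 had 42.3, 66.5, 35.2 and 32.5 CPM in the WT libraries and 19.2, 14.4, 14.4 and 16 CPM in the Flcn KO libraries. It fell, again with WT replicate 2 highest (log2 fold change of −1.46 with an SE of 0.19, adjusted p = 1.32e-05). In the long interval between Zeb2, a zinc-finger repressor gene, and Acvr2a, chr2:46307630-46308049 had 11.8, 15.6, 9.94 and 9.1 CPM in the WT libraries and 4.69, 1.07, 1.99 and 1.14 CPM in the Flcn KO libraries, and fell (log2 fold change of −2.26 with an SE of 0.36, adjusted p = 0.000138). At 71.8 kb from Klf6, chr13:5789313-5789733 fell from 13 ± 2.16 CPM to 3.72 ± 0.852 CPM (SD, n = 4; log2 fold change of −1.80 with an SE of 0.29, adjusted p = 0.000148), and at 125 kb from Rbpj, the DNA-binding factor of Notch signalling, chr5:53430130-53430506 fell from 13.7 ± 6.8 CPM to 2.83 ± 1.29 CPM (log2 fold change of −2.23 with an SE of 0.36, adjusted p = 0.000176).

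The other 4 of the 10 lower members with the lowest adjusted p are given next. Between Sema6d, a semaphorin gene, and Slc24a5, chr2:124732530-124733054 fell from 14.4 ± 4.25 CPM to 3.38 ± 1.07 CPM (SD, n = 4; log2 fold change of −2.08 with an SE of 0.30, adjusted p = 3.07e-05). Close to the distance limit, 51 kb from Camk1g and over 1 Mb from Plxna2, a semaphorin receptor gene, chr1:193421355-193421833 fell from 20.2 ± 3.68 CPM to 6.19 ± 2.49 CPM (log2 fold change of −1.66 with an SE of 0.25, adjusted p = 6.95e-05). Between Snx16 and Ralyl, chr3:10648078-10648502 had 13.7, 13.4, 5.1 and 7.87 CPM in the WT libraries and 0, 1.6, 1.49 and 0 CPM in the Flcn KO libraries, with 2 of the Flcn KO libraries at 0 (log2 fold change of −3.64 with an SE of 0.54, adjusted p = 0.000105). Between Commd10 and Sema6a, chr18:47154279-47154954 fell from 6.42 ± 2.62 CPM to 0.737 ± 0.528 CPM (log2 fold change of −3.23 with an SE of 0.52, adjusted p = 0.000139).

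The members fell into 1041 deserts, each the interval between 2 neighbouring protein-coding genes. The median desert had 3 members and the largest 101, and 328 had a single member. Of the 902 deserts with a tested member, 146 had a call: 106 had exactly 1, and 40 had 2 or more and together held 112 of the 218 calls. Among those 40, all calls were higher in 22, all lower in 10, and in both directions in 8. Deserts are described below in order of such counts, so they were chosen by this contrast and their sums are given without a test.

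The desert from Gfra2, which encodes a co-receptor for neurturin, to Gm9195 on chromosome 14 had the most gains. It held 10 members within 233 kb; 6 of the 7 tested rose, and the seventh had a log2 fold change of 1.14. Of the 6, 4 did not reach the filter's minimum in all 4 WT libraries and so passed only with Flcn KO counts, and at a minimum count of 30 there were 3 calls. Its 2 strongest members were chr14:71146420-71146845 (log2 fold change of 2.21 with an SE of 0.24, adjusted p = 1.37e-07), with 3.32, 5.35, 6.63 and 8.86 CPM in the WT libraries and 23.5, 24.6, 34.8 and 28.2 CPM in the Flcn KO libraries, and chr14:71170690-71171125, with 0.83, 1.78, 2.55 and 1.97 CPM in the WT libraries and 10.6, 15.5, 19.4 and 14.5 CPM in the Flcn KO libraries (log2 fold change of 3.07 with an SE of 0.34, adjusted p = 1.38e-07). The summed accessibility of all 10 members was 27, 29.4, 24.5 and 27.8 CPM in the WT libraries and 76.6, 86.8, 119 and 103 CPM in the Flcn KO libraries, and no libraries overlapped. The 3 members below the filter had 1.53 to 5.81 CPM in sum in WT and 5.87 to 12.2 CPM in Flcn KO. Of the 3 tested peaks within 10 kb of Gfra2 itself, 2 rose, so the desert and the gene beside it were higher together.

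The desert between Kit and Kdr on chromosome 5 held 10 members, and all 4 that passed the filter rose. Besides the member given above, 3 lay within 9565 bp of each other, 170 to 179 kb from Kit. At the first of these, chr5:75826423-75826855, the values were 0.83, 0.892, 0 and 0 CPM in the WT libraries and 6.06, 3.21, 6.46 and 3.81 CPM in the Flcn KO libraries, with 2 WT libraries at 0 (adjusted p = 0.0012). Of the 4 that rose, 3 did not reach the filter's minimum in all 4 WT libraries and passed only with their Flcn KO counts. The sum over all 10 members, untested ones included, was 17.4, 31.2, 26.5 and 24.4 CPM in the WT libraries and 94.4, 67.1, 104 and 89.9 CPM in the Flcn KO libraries. The 6 untested members alone had 2.49 to 5.90 CPM in WT, against 9.08 to 17.5 CPM in Flcn KO. Of the 5 tested peaks within 10 kb of Kit, 0 passed by edgeR, DESeq2 or limma-voom, and 3 were higher at an unadjusted p under 0.05.

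Gains were more scattered in the larger deserts. From Setbp1 to Gm36718, 16 of 17 tested members had a positive log2 fold change and 4 rose, and the sum over 18 members was 318, 363, 371 and 347 CPM in the WT libraries and 427, 444, 557 and 533 CPM in the Flcn KO libraries, with no overlap. Only 2 of these 4 calls were made without WT replicate 1, 2 or 4, or without Flcn KO replicate 3. From Nrip1, a nuclear receptor co-repressor gene, to Usp25, 4 of 34 rose, 3 of them below the minimum in at least 1 WT library, and at chr16:76811048-76811470 the values were 1.66, 2.68, 4.59 and 6.4 CPM in the WT libraries and 15.3, 15.5, 20.6 and 19.8 CPM in the Flcn KO libraries (log2 fold change of 2.23 with an SE of 0.30, adjusted p = 8.03e-06). From Hmga2 to Msrb3 3 of 6 rose, and all 3 members from Asb1 to Twist2 rose. Of these last 3, 2 passed the filter only with Flcn KO counts, and 1 call was made at a minimum count of 30. From Rbms1 to Tank 3 of 20 rose and from Prl5a1 to Sox4, the gene of a transcription factor, 3 of 35. From Edil3 to Hapln1, 3 of 9 rose, of which 1 did without WT replicate 2, while 2 of 3 tested peaks within 10 kb of Edil3 fell.

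**Figure D4:**
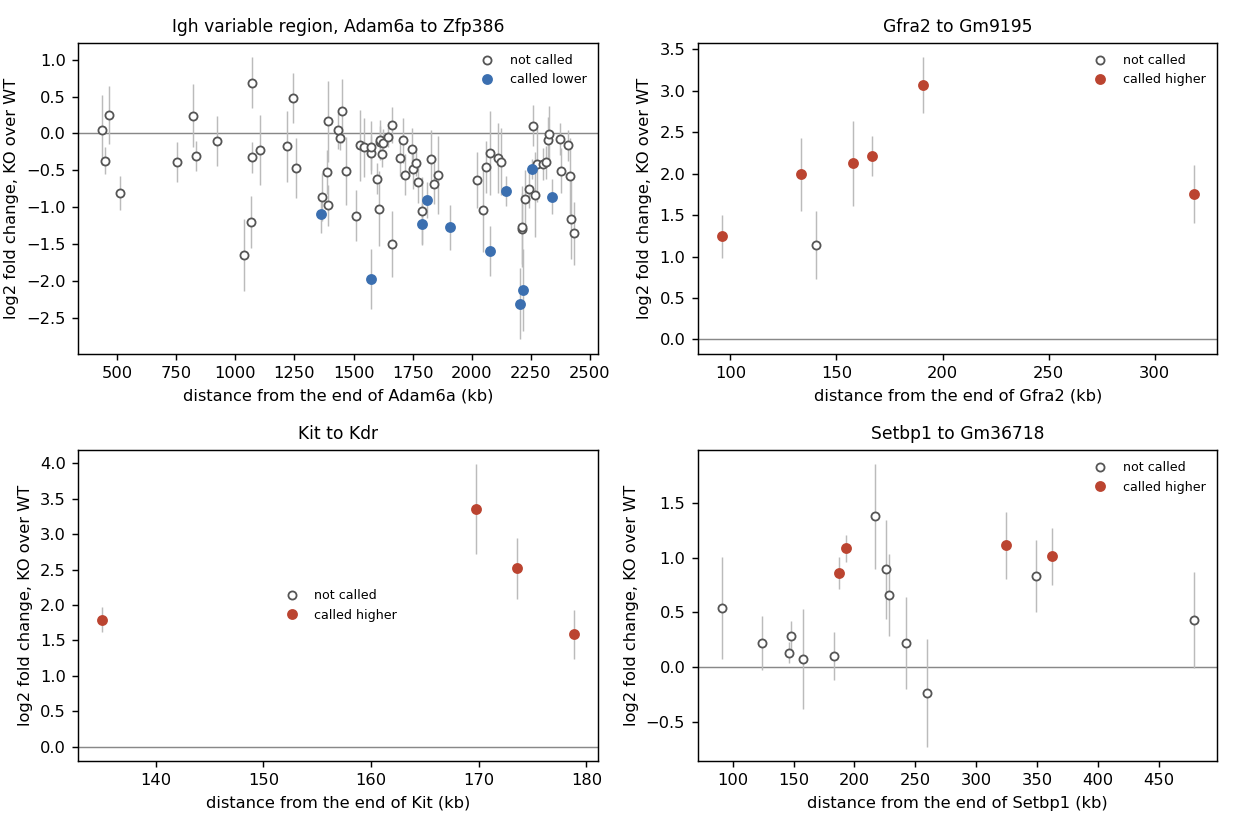
Log2 fold change (Flcn KO over WT) of each tested member against distance in kb from the end of the left flanking gene in 4 deserts, with grey bars for 1 SE; filled points were called, red higher and blue lower, and open points were not. Calls in the Igh variable region are all lower and lie 1363 to 2341 kb from Adam6a, with none nearer to it. The tested members beside Gfra2 and Kit all lie above 0.

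The desert with the most calls was the variable region of Igh, the immunoglobulin heavy chain locus, between Adam6a and Zfp386 on chromosome 12. Its segments are rearranged in B lineage cells to build antibody genes. Of 83 tested members 11 fell and 0 rose by edgeR; 10 fell by DESeq2, 9 by limma-voom and 0 rose by either. At an unadjusted p under 0.05, 30 were lower and 0 higher. A log2 fold change below 0 was found in 73 of the 83, with a median of −0.42. The sum over its 101 members was 979.9, 1116, 1017 and 952 CPM in the WT libraries and 773, 649, 864 and 749 CPM in the Flcn KO libraries, so that every Flcn KO library lay below every WT library. The count of calls rested on single libraries: 3 members fell without WT replicate 2, 4 without Flcn KO replicate 2, 6 without Flcn KO replicate 4 and 7 without WT replicate 1. Of the 11, 4 did not reach the filter's minimum in all 4 Flcn KO libraries and so passed only with WT counts. Variable segments resemble each other in sequence, and how reads matching several of them were counted is not given in the sources used here, so values of single segments are uncertain.

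Of the 11 members that fell in the Igh region, 8 overlapped an annotated variable segment, 1 of them the pseudogene segment Ighv1-38. Among all 102 members within the locus, tested or not, 54 overlapped a segment. At chr12:115622947-115623361, over Ighv1-69, the values were 10.8, 11.2, 8.16 and 6.89 CPM in the WT libraries and 3.52, 1.6, 3.98 and 3.05 CPM in the Flcn KO libraries (log2 fold change of −1.59 with an SE of 0.34, adjusted p = 0.00441). At chr12:115749604-115749936, which overlapped no segment, they were 6.23, 5.35, 5.1 and 4.43 CPM in the WT libraries and 0.782, 0.534, 1.49 and 1.52 CPM in the Flcn KO libraries (log2 fold change of −2.30 with an SE of 0.48, adjusted p = 0.00399). These were the 2 calls of the 11 made in every alternative in which the member could be fitted. The most accessible of the 11, over Ighv1-74, had 55.6, 50.0, 67.3 and 52.2 CPM in the WT libraries and 34.8, 37.9, 50.2 and 38.1 CPM in the Flcn KO libraries and the weakest call (log2 fold change of −0.48 with an SE of 0.14, adjusted p = 0.049). Cd79a and Pax5, B cell marker genes with peaks, had 31.1 to 44.0 CPM in sum in WT and 28.3 to 43.8 CPM in Flcn KO, and 0 of their 4 tested peaks passed the test or reached an unadjusted p under 0.05. The part of B cells in the Igh values was not tested.

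The other antigen receptor loci had few calls, and their difference from Igh was not tested. In Tcra, the T cell receptor alpha locus, 1 of 73 tested members rose, none fell and the median was 0.07, and in Tcrb 1 of 20 rose. In Igk, the kappa light chain locus, 0 of 5 passed by edgeR, DESeq2 or limma-voom (1 had an unadjusted p under 0.05), with sums of 84.5 to 108 CPM in WT, against 83.6 to 116 CPM in Flcn KO. Igl held no member, and 0 of 3 tested members in Tcrg passed or reached an unadjusted p under 0.05. Leaving out all antigen receptor loci, 122 members rose and 83 fell out of 4278 tested.

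**Figure D5:**
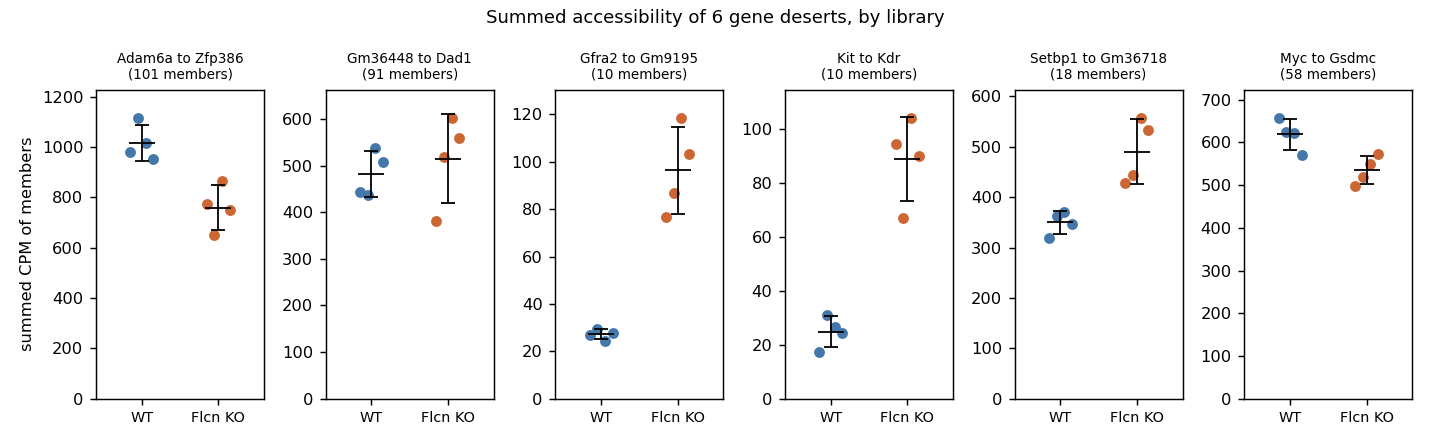
Summed CPM of all members, tested or not, in 6 gene deserts, per library (points) with mean and SD (n = 4), WT in blue and Flcn KO in orange, each axis starting at 0. The groups separate in the Igh (Adam6a to Zfp386), Gfra2, Kit and Setbp1 deserts and overlap in the Tcra desert (Gm36448 to Dad1) and, by a narrow margin, beside Myc.

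Outside Igh, runs of losses were shorter. From Nmbr to Cited2, 3 of 17 tested members fell, 13 of the 17 log2 fold changes were below 0, and the sums were 198, 282, 161 and 180.3 CPM in the WT libraries and 174, 111, 103 and 111 CPM in the Flcn KO libraries, with Flcn KO replicate 1 inside the WT range. From Zeb2 to Acvr2a 3 of 24 fell. Without Flcn KO replicate 1 these 2 counts were 6 and 5. All 3 lower members from Zeb2 to Acvr2a did not reach the filter's minimum in all 4 Flcn KO libraries and passed only with WT counts. The same held for 2 of the 3 from Nmbr to Cited2. From Myc, a gene for a growth-promoting transcription factor, to Gsdmc, 35 of 46 tested members had a log2 fold change below 0 but 2 passed the test, and the sums were 658, 625, 622 and 571 CPM in the WT libraries and 498, 519, 549 and 573 CPM in the Flcn KO libraries. Between Celf2 and Gata3, 2 of 37 fell. Both directions occurred within 1 desert from Ptger4, a prostaglandin E2 receptor gene, to Dab2, with 2 higher and 2 lower of 36, where neither higher call was made without WT replicate 2, WT replicate 4, Flcn KO replicate 2 or Flcn KO replicate 4 and 1 was made without WT replicate 1 or Flcn KO replicate 3. They also did from Cdkn2b to Dmrta1, with 2 and 2 of 12, where 1 lower call was made without WT replicate 2. Both lower members from Ptger4 to Dab2 and 1 of the 2 from Cdkn2b to Dmrta1 likewise passed the filter only with WT counts.

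Some large deserts of T cell genes held no call. Among them were those from Foxo1 to Cog6, from Id2 to Rnf144a and from Saraf to Dusp4, with 40, 36 and 27 tested members. Foxo1 and Id2 encode regulators of lymphocyte differentiation. At an unadjusted p under 0.05 by edgeR, 2, 5 and 5 of them differed, and 0 passed by DESeq2 or limma-voom. At this depth changes there were not detectable, which does not show that none exist.

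Neighbouring members were also read as single elements by summing counts over clusters, in which adjacent members lie no more than 10000 bp apart. There were 1200 clusters with 3587 members, and 2124 members stood alone. In the fit of sums, 65 of 1196 tested clusters rose and 30 fell, together 7.94%, against 2.40% over all rows of that fit. Only members were summed, and every other peak kept its own row. A sum holds more counts than a single peak, so the 2 shares are not of like rows. Without WT replicate 2, 51 clusters rose and 10 fell. Of the called clusters 24 had no called member, while 45 clusters with a called member were not called as a sum. In 17 clusters 2 or more members were called, all higher in 14 and all lower in 3, and none mixed directions. The called share of single members was close between the 2 kinds, 4.53% in clusters and 5.61% among those standing alone.

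The 3 clusters with 3 called members each lay beside Kit, Hmga2 and Edil3. The Kit cluster summed to 5.27 ± 1.94 CPM in WT, against 22.96 ± 3.23 CPM in Flcn KO (SD, n = 4; log2 fold change of 2.14 with an SE of 0.25, edgeR adjusted p = 4.55e-07). The Hmga2 cluster, 11993 bp long, had 50.4, 50.4, 44.4 and 34.4 CPM in WT and 158, 72.9, 142 and 89.9 CPM in Flcn KO. Its Flcn KO libraries all stood above WT but spread widely (log2 fold change of 1.38 with an SE of 0.22, adjusted p = 0.00535). Over the Edil3 cluster the sums were 47.7, 39.7, 58.1 and 48.7 CPM in WT and 89.5, 70.5, 88.5 and 85.3 CPM in Flcn KO (log2 fold change of 0.79 with an SE of 0.12, adjusted p = 7.07e-05).

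A further 14 clusters had 2 called members, both higher in 11 and both lower in 3, and the first 5 taken by rule are described by their sums. Beside Gfra2 the sums were 7.86 ± 2.66 and 36.6 ± 4.17 CPM, beside Asb1 6.68 ± 1.20 and 30.97 ± 6.44 CPM, and from Mbnl1 to P2ry1 23.7 ± 1.72 and 63.8 ± 12.5 CPM in WT and Flcn KO. Beside Setbp1 they were 97.6 ± 8.30 and 183 ± 36.8 CPM, and from Nrip1 to Usp25 9.77 ± 3.49 and 31.6 ± 5.08 CPM (SD, n = 4 for each). All 5 rose as sums, with log2 fold changes of 2.22, 2.22, 1.42, 0.91 and 1.70 in that order. Within the Setbp1 cluster the third member, at chr18:79293678-79294120, had a log2 fold change of 0.10, so the sum did not move as 1 block.

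The 3 clusters with 2 lower members were added after their values were seen. From Adgrl2 to Adgrl4, adhesion receptor genes, the sums were 31.8 ± 7.38 and 16.9 ± 1.42 CPM in WT and Flcn KO (SD, n = 4; log2 fold change of −0.91, edgeR adjusted p = 0.00245). In the Igh region they were 25.7 ± 1.598 and 9.46 ± 3.11 CPM (log2 fold change of −1.44, adjusted p = 4.29e-05). From Rfpl4b to Lama4, a laminin gene, they were 36.1 ± 8.15 and 20.5 ± 0.946 CPM (log2 fold change of −0.81, adjusted p = 0.00371). All 3 fell as sums.

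Peaks at the flanking genes were read beside the called members. Of 122 higher members with a tested peak within 10 kb of a flanking gene, 31 (25.4%) had a higher peak there and 11 (9.02%) a lower one. Among 91 lower members the numbers were 7 (7.69%) and 10 (10.99%). Beside the 4170 members that were not called, 11.9% had a higher and 9.18% a lower flanking peak. Members of 1 desert share their flanking genes, so these are counts and were not tested.

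Genes of T cell transcription factors flanked the most members among 5 lists of flanking genes. The list has 83 genes, of which 40 flanked 766 members; 9 of 625 tested rose and 16 fell (4.00%). Of all tested members 4.88% were called, and of all tested peaks 2.37%. Differences from these shares were not tested for any list. Beside Satb1, a chromatin organiser needed for T cell development, chr17:52064578-52065103 had 32, 35.7, 37.2 and 34.4 CPM in the WT libraries and 53.4, 70.5, 66.6 and 71.6 CPM in the Flcn KO libraries; it rose (log2 fold change of 0.91 with an SE of 0.13, adjusted p = 2.08e-05). Beside Tox, chr4:7454974-7455602 rose from 68.1 ± 11.3 CPM to 115 ± 23 CPM (SD, n = 4; log2 fold change of 0.74 with an SE of 0.13, adjusted p = 0.000655), and the lower examples beside Zeb2 and Klf6 are given above.

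Beside cytokine, chemokine and effector genes, a list that also holds regulators of signalling, 10 of 278 tested members rose and 2 fell (4.32% called). The share of all tested members was 4.88%. Between Tnfsf18, the gene of the GITR ligand, and Fasl, that of the death ligand, chr1:161704498-161705306 had 13.3, 13.4, 21.9 and 17.2 CPM in the WT libraries and 32.1, 33.1, 35.1 and 29.3 CPM in the Flcn KO libraries. The groups were well apart and the member rose (log2 fold change of 0.99 with an SE of 0.18, adjusted p = 0.000842). Both lower members lay in the desert from Ptger4 to Dab2. Between Fam76b and Sesn3, a nutrient-sensing sestrin gene, chr9:14006277-14006603 rose from 3.57 ± 2.42 CPM to 13.8 ± 2.77 CPM (log2 fold change of 1.97 with an SE of 0.33, adjusted p = 0.000211).

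Of 143 tested members beside genes of T cell surface, cytokine and chemokine receptors, 1 rose and 1 fell (1.40%). This was below the 4.88% of all members and the 2.37% of all peaks. The higher one was chr8:128171125-128171548, 187 kb from Nrp1, which marks many Treg cells, at 5.81 ± 0.954 CPM to 11.7 ± 1.47 CPM (log2 fold change 1.01, edgeR adjusted p = 0.0299). The lower one was chr13:44074148-44074495, 271 kb from Cd83 (log2 fold change −2.33, edgeR adjusted p = 0.0357). The first call was not made in 5 of the alternatives and the second in 9. Beside developmental transcription factor and patterning genes 12 of 280 rose and 4 fell (5.71%, against 4.88% of all members). An example is chr7:115213160-115213522 beside Sox6, with 0.83, 1.78, 1.53 and 1.48 CPM in the WT libraries and 12.5, 7.48, 8.7 and 6.86 CPM in the Flcn KO libraries (log2 fold change of 2.67 with an SE of 0.39, adjusted p = 3.17e-05).

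Beside cell adhesion and synaptic genes 4 of 126 rose and 4 fell (8 calls or 6.35%, against 4.88% of all members). The member with the largest log2 fold change among those named, chr6:10690468-10690938, lay 1441 kb from Nxph1, a neurexophilin gene, and 1209 kb from Ndufa4. Its values were 0.83, 0.446, 2.04 and 5.9 CPM in the WT libraries and 30.9, 34.7, 20.4 and 40.4 CPM in the Flcn KO libraries; WT replicate 4 was the highest of WT and still far below Flcn KO (log2 fold change of 3.80 with an SE of 0.42, adjusted p = 2.57e-05). Beside Alcam, an adhesion molecule gene, chr16:52851152-52851495 fell from 7.78 ± 3.35 CPM to 1.59 ± 0.916 CPM (log2 fold change of −2.23 with an SE of 0.43, adjusted p = 0.00146). Members beside a gene of any of the 5 lists were called at 4.45% (36 higher, 27 lower of 1416), and the rest at 5.09% (88 and 67 of 3047).

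The most accessible members were not called. The highest, chr1:7397638-7398443, over the start of the lncRNA Gm26901 between Pcmtd1 and Sntg1, had 340.2, 319.9, 401 and 389.7 CPM in the WT libraries and 355, 383, 404 and 431 CPM in the Flcn KO libraries. The other 4 lay from Gm7135 to Macir, from Ncam2 to Mrpl39, from Rgmb to Gm51425 and from Ccdc54 to Cblb, with means from 183 to 268 CPM and log2 fold changes of 0.10 to 0.24. All 5 groups overlapped.

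At the other extreme, the 5 tested members farthest from a gene lay 1348 to 1758 kb away. The farthest was chr14:82685011-82685370, between Olfm4 and Pcdh17, with a log2 fold change of 0.27 (adjusted p = 0.824). The only one of high accessibility was chr1:101902086-101903132, between Cntnap5b and Cdh20, with 60.8, 76.7, 62.7 and 66.9 CPM in the WT libraries and 53.4, 42.7, 53.2 and 52.6 CPM in the Flcn KO libraries. Its groups did not overlap but it did not pass the test (log2 fold change of −0.40 with an SE of 0.12, adjusted p = 0.0667). Next to the 50000 bp limit, the 3 nearest members inside it lay 50006, 50006 and 50011 bp from a gene, and the 1 that was tested had 5.82 and 3.87 CPM in WT and Flcn KO. The 3 nearest outside it, at 49978, 49956 and 49928 bp, had 25.8 and 26.2, 2.78 and 4.25, and 5.00 and 6.46 CPM.

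Among the 83 members named by rule or chosen after their values were seen, 63 were called. Of those, 47 were called in every alternative in which they could be fitted and 16 were not in at least 1, and no called member changed sign.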

How the data were processed

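The deposited table holds raw counts of reads in mm10 peaks for 8 libraries, not normalized by the authors. The submitters' processing notes list bedtools 2.25.0, BWA 0.7.16, MACS2 2.1.1, Picard 2.9.4, SAMtools 1.9 and Trimmomatic 0.36, with no roles; the sources used here do not say how duplicates were handled, whether reads were shifted for the transposase, or how peaks were merged. Starts were converted to count from 1. Members were found against 20661 protein-coding genes of RefSeq (GRCm38.p6). edgeR 4.0.16 (R 4.3.3) was fitted on all peaks: filterByExpr (minimum count 10), TMM, robust quasi-likelihood, genotype as the only term, Benjamini-Hochberg over all tested peaks. The fit was tested on simulated data. SE derive from the F statistic. Alternatives used DESeq2 1.42.0, limma 3.58.1, other filters, scalings, distances and gaps, halved counts, and 1 library left out; loess offsets and leaving out antigen receptor loci were chosen after seeing the data.

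Members and gene lists were chosen with earlier results of these data known. Named members are the 10 higher and 10 lower with the lowest adjusted p, the 5 most accessible, the 5 farthest, those beside the limit, up to 4 called per list, and clusters with 2 or more calls (up to 8); those in the Igh, Gfra2 and Kit deserts and over promoter windows were chosen after their values were seen. P-values set the difference between the groups against the spread between these libraries, with no batch term in the main fit.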

Additional observations from a re-analysis of the deposited data

Results flagged for a closer look

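In groups of 4 libraries, a value was marked when the gap between 1 library and its nearest neighbour took up nearly the whole range of the group. This held in 14 of 206 groups examined, where chance marks about 1 in 20; the share of the range is given for each, and WT replicate 2 was the library in 7.

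WT replicate 2 stood high at the Nmbr to Cited2 member chr10:16600813-16601242 (0.862; 30.8 CPM against 17.2 to 19.1), at the Igh member chr12:115452560-115452983 (0.902; 17.4 against 8.86 to 9.69), and at the Gfra2 member chr14:71298337-71298728 (0.865; 3.12 against 2.46 to 2.55). It also stood high at the Pcdh20 to Pcdh9 member chr14:89826794-89827175 (0.994; 8.70 against 6.63 to 6.64) and the Ptger4 to Dab2 member chr15:6129636-6130218 (0.834; 17.6 against 6.89 to 8.67). The same held for the summed CPM of the deserts from Cdkn2b to Dmrta1 (0.860; 180.2 against 157 to 161) and from Zeb2 to Acvr2a (0.904; 543 against 413 to 425). WT replicate 3 stood high at the Edil3 to Hapln1 member chr13:89395866-89396204 (0.866; 8.67 against 4.91 to 5.41).

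In Flcn KO, replicate 1 was low at chr14:71298337-71298728 beside Gfra2 (0.866; 5.08 against 10.2 to 10.9 CPM), and high in the sums from Cdkn2b to Dmrta1 (0.950; 223 against 145 to 149) and from Nmbr to Cited2 (0.886; 174 against 103 to 111). Replicate 2 was low at the Cntnap5b to Cdh20 member chr1:101902086-101903132 (0.925; 42.7 against 52.6 to 53.4). Replicate 4 was low at the Igh member chr12:115691710-115692148 (0.865; 9.91 against 12.4 to 12.8) and high at the Commd10 to Sema6a member chr18:47154279-47154954 (0.874; 1.52 against 0.391 to 0.534).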

How the results depend on the processing

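Members called higher numbered 124 and lower 94. Moving the distance limit to 100000 and 200000 bp left 78 and 34 higher and 58 and 34 lower, and requiring 50000 bp from any gene left 33 and 18, since fewer members were tested. Lower members came to 45 at a minimum count of 30 (2222 tested; 68.8% of calls higher, against 56.9%). Leaving out 1 library gave 90 to 161 higher and 42 to 177 lower members, 61 to 142 called clusters (95 with all), and a Flcn KO minus WT difference in the share of counts of 0.12 to 0.37 percentage points; the cause was not tested. DESeq2's Wald test gave 125 and 91, limma-voom 114 and 73, and no filter 137 and 108. Halved counts, nearer to fragment numbers, gave 118 higher and 67 lower among 2974 tested. The share of counts kept its direction and side of the threshold in every alternative.

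Same-numbered libraries showed little shared deviation (r of 0.08, −0.05, 0.06 and 0.05, and 1 of 4 correlated best with its own number). With so few libraries this cannot decide whether the numbers pair them. With the replicate block 140 members were higher and 123 lower, against 124 and 94 in the main fit. The block gave 112 called clusters, against 95. Among named peaks 76 combinations of peak and setting lost a call and 2 gained one. No called peak changed sign; 2 uncalled ones did. The third member of the Setbp1 cluster (log2 fold change 0.10) came to −0.0453 without WT replicate 4 and −0.00200 without Flcn KO replicate 3 (−0.05 to 0.21 over libraries left out), and the peak just outside the 50000 bp limit between Fer1l6 and Tmem65 (0.014) to −0.0123 without WT replicate 1, −0.0457 without WT replicate 3 and −0.060 without Flcn KO replicate 3 (up to 0.11). Depth limits members with few counts, which the filter left untested.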
